A study of Mus musculus with 48 samples.

Results

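Narrow acetylated H3K4me3 regions are short stretches of neuronal chromatin that carried peaks of both trimethylated lysine 4 (H3K4me3) and acetylated lysine 27 (H3K27ac) of histone H3 in every Control library. Peaks of the 4 Control H3K4me3 libraries on chr1 to chr19 were merged where they overlapped, which gave 59935 regions. Of these, 30258 held a peak in all 4 libraries. A region was kept where the mean length covered by H3K4me3 peaks per Control library was under 1000 bp and an H3K27ac peak overlapped it in all 3 Control H3K27ac libraries. The rule kept 8337 regions, called members here, or 13.9% of all merged regions and 27.6% of those with a peak in all 4 libraries. Control H3K4me3 and Control H3K27ac peaks therefore chose the members, and both marks are described below with no test. H3K9ac, H3K4me1 and RNA were not used in the choice.

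The study compared mice labelled Setd1b cKO, a conditional knockout of Setd1b, with mice labelled Control. All were C57BL/6J animals of 4 to 6 months. ChIP-seq was done on fixed neuronal nuclei of the hippocampal CA region isolated by flow sorting, with 4 Control and 4 cKO libraries for H3K4me3 and H3K4me1, 3 Control and 4 cKO for H3K27ac, and 4 Control and 3 cKO for H3K9ac, and 3 neuron RNA libraries of each genotype were used beside them. The labels name CA neurons as the source of that RNA, while their protocol speaks of whole tissue, and how neurons were separated for RNA is not given in the sources used here. The Cre driver, the deleted exons, the Control genotype and any pooling of animals are not given in the sources used here. The labels do not state whether libraries came from separate animals, so p-values measure the spread between these libraries, which may be technical.

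H3K4me3 marks the start sites of active genes, where it often extends into the first part of the transcribed gene. H3K27ac and H3K9ac are found at active promoters and active enhancers, and H3K4me1 is typical of enhancers and of the flanks of promoters. SETD1B is a catalytic subunit of a COMPASS complex, one of the enzyme complexes that methylate H3K4 in mammals.

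Every mark was measured as covered length, the number of bases of a member that the authors' peaks of a library covered. A length of 0 says that no peak was called at the authors' threshold, not that the mark was absent. ChIP libraries held 24.4 to 27.8 M tags for H3K4me3, 37.0 to 41.6 M for H3K27ac, 35.7 to 39.0 M for H3K9ac and 29.6 to 35.5 M for H3K4me1. The neuron RNA libraries held 55.7 to 69.1 M counts. Setd1b itself was at 65.4, 49.7 and 47.6 CPM, read counts scaled to the size of the library, in Control neurons. The libraries labelled cKO had 59.9, 62.6 and 72.1 CPM. Its whole-gene count was thus no lower in cKO, although a deletion of single exons need not lower such a count, and the word cKO below stands for that label. Summed CPM of the 9 excitatory neuron markers was 3093 to 3682 in Control and 2714 to 3112 in cKO libraries, and 2 of them, Neurod6 and Wfs1, were lower in cKO by edgeR (adjusted p = 2.96e-05 and 2.19e-04). The 7 interneuron markers summed to 522 to 617 CPM in Control and 519 to 682 CPM in cKO. Over both genotypes the sums were 116 to 138 CPM for 8 oligodendrocyte lineage, 9.95 to 11.7 CPM for 6 microglia and 15.2 to 17.4 CPM for 6 endothelial and mural markers, and no marker was at 0. Kdr, of the endothelial list, was lower in cKO (edgeR adjusted p = 0.0411). The 6 astrocyte markers summed to 326 to 384 CPM in Control and 416 to 430 CPM in cKO. The part of the excitatory and astrocyte differences in the RNA results was not tested.

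The start-site sequences below show what kind of DNA carried the members that lie on promoters. RefSeq promoter windows of GRCm38.p6, from 250 bases before to 50 after a start site, are given for 5 genes whose start site lay inside a member and whose RNA differed between the genotypes. The window of Grin1, which lay in a wide region, stands last for contrast. Sequences run 5′ to 3′ on the strand of the gene, and capitals mark CpG dinucleotides, the sites of DNA methylation that cluster in CpG islands.
Lrrc10b: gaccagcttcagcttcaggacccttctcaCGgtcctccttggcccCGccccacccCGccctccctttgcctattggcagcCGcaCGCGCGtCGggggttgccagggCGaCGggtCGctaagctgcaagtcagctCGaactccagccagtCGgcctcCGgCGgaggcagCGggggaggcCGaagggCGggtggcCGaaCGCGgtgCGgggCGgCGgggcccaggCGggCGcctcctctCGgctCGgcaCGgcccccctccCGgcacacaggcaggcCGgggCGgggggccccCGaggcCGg
Zmynd8: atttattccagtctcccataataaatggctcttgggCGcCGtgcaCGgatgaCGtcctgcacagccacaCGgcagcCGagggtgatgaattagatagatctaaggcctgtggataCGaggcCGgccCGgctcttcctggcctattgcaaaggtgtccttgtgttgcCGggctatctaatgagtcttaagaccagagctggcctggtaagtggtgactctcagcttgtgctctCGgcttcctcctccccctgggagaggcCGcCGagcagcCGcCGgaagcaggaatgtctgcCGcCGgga
Fam107a: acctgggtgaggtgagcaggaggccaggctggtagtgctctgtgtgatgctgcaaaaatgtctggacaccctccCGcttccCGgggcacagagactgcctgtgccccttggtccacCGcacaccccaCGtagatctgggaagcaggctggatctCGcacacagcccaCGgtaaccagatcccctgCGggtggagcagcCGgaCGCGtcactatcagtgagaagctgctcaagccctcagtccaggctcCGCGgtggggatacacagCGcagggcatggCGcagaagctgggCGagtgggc
Myo5c: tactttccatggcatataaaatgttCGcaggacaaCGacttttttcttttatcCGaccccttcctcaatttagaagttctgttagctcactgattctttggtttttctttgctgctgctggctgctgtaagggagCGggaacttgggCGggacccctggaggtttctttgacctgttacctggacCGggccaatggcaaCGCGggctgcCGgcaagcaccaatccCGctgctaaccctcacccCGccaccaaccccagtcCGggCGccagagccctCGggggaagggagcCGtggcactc
Dglucy: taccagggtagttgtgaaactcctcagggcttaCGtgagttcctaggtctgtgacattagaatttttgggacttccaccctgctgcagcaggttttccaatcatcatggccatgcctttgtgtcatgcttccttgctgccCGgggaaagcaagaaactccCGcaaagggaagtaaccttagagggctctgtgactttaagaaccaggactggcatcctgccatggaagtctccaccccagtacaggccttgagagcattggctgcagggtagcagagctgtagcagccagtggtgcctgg
Grin1: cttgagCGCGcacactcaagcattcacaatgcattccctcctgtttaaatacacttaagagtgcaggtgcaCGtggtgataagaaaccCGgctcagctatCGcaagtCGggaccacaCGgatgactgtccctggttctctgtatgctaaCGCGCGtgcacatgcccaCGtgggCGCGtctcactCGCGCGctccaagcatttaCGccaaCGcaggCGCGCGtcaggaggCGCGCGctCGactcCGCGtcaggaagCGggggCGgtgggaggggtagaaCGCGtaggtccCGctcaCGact
The Lrrc10b window (chr19:10457398-10457697, minus strand) held 34 CpG and the Grin1 window (chr2:25319138-25319437, minus strand) 33. The Zmynd8 window (chr2:165858124-165858423, minus strand) held 17, and those of Fam107a (chr14:8317558-8317857, minus strand) and Myo5c (chr9:75231764-75232063, plus strand) held 15 each. The Dglucy window (chr12:100778807-100779106, plus strand) held 3. Promoter members thus ranged from CpG-dense to CpG-poor.

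Over all 622 listed start sites inside members, the median window held 10 CpG and 56.2% GC. Start sites in mid-width acetylated regions, with a mean Control length of 1000 to under 3000 bp, had a median of 21 CpG and 61.3% GC, and those in wide acetylated regions of 3000 bp or more had 24 CpG and 64.3% GC. The median over all 31396 listed start sites was 7 CpG, and over start sites outside any H3K4me3 region it was 3. The GC-box core GGGCGG, searched on both strands, was present in 44.1% of member windows, 65.6% of mid-width windows, 67.1% of wide windows and 36.0% of all windows. The letters TATAAA, found in many core promoters, occurred in 10.3% of member windows and 13.6% of all windows. The activity-related motifs TGACGTCA (CREB) and TGANTCA (AP-1) occurred in 1.13% and 6.75% of member windows, against 1.83% and 7.84% of all windows. Promoter members thus lay between the promoters outside H3K4me3 regions and those in wider acetylated regions in CpG content. No motif searched contains another. A match is a description of letters, and genomic sequence of members away from start sites was not used here.

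Most members were not at promoters. The mean Control covered length had a median of 566.5 bp, with quartiles at 405.75 and 759.5 bp and a range of 174.75 to 999.75 bp. The listed start sites cover all autosomes except chr18, which held 318 members. Of the other 8019 members, 562 (7.0%) contained a start site, 473 (5.9%) had one within 1 kb and 6984 (87.1%) were farther away. More than 10 kb separated 62.4% of them from the nearest listed start site. By comparison, 64.5% of mid-width and 76.2% of wide acetylated regions contained a start site. The list of start sites is not complete, so the shares with a start site inside or nearby are lower bounds and those farther away upper bounds.

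A RefSeq gene body overlapped 5741 members (68.9%), and some genes held many. Gse1 held 17 members, Tcf4, a basic helix-loop-helix transcription factor, held 15, and Anks1b, Nfix and Prkce held 13 each. Nfix, which encodes a nuclear factor I transcription factor, had the densest set among these, at 13.5 members per 100 kb of gene. Rbfox3, which encodes the neuronal nuclear antigen NeuN, held 11, and Ank3, the ankyrin of the axon initial segment, held 10. Another Control H3K4me3 region lay within 2 kb of 3252 members (39.0%). A wide acetylated region lay within 2 kb of 452 members, and a mid-width but no wide one within 2 kb of 745. For 2055 members only regions of another kind lay there, other members included, while 5085 members had none.

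Regions on both sides of the length limit were close in Control length. Just inside, a member at chr6:50032934-50034027 had a mean Control length of 999.75 bp and one in Lasp1 at chr11:97812183-97813434 had 999.5 bp. Another just inside, at chr19:58855514-58856772, also had 999.5 bp, and its H3K4me3 covered 901, 973, 1048 and 1076 bp in Control but 0, 488, 415 and 0 bp in cKO libraries. Just outside, regions in Sez6l at chr5:112551325-112552656 and in Hdac9 at chr12:34495780-34497007 each had 1000 bp. H3K4me3 at the Hdac9 region covered 857, 1007, 1015 and 1121 bp in Control and 1102, 1199, 1219 and 1156 bp in cKO libraries, and at the Sez6l region 1013, 943, 886 and 1158 bp in Control and 565, 808, 1099 and 738 bp in cKO libraries.

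A typical member carried all 4 marks. Median H3K4me3 length over the members was 532, 560, 593 and 609 bp in the 4 Control libraries, all with a peak at every member by the rule. In cKO libraries 1 to 4, H3K4me3 peaks were present at 86.0, 92.9, 88.8 and 91.0% of members, with median lengths of 459, 595, 536 and 553 bp. The genotypes overlapped in median length, and cKO library 1 was the lowest of the 8. H3K27ac had a median of 592, 565 and 612 bp in Control and 576, 618, 583 and 592 bp in cKO libraries, which covered 94.3, 96.6, 95.2 and 95.5% of members. Here too the median lengths overlapped.

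H3K9ac was present at 87.4, 89.8, 89.6 and 90.5% of members in Control libraries 1 to 4 and at 93.4, 92.7 and 91.0% in cKO libraries 1, 2 and 4. Its median length was 443, 490, 482 and 501 bp in Control and 533, 539 and 497 bp in cKO. Each cKO library thus had a larger share of members with H3K9ac than each Control library, while the median lengths overlapped between cKO library 4 and Control library 4. H3K4me1 was near saturation, at 97.4 to 98.6% of members in Control and 97.8 to 98.7% in cKO libraries. Its median lengths were 708 to 719 bp and 711 to 725 bp, against a median member span of 763 bp.

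Tag numbers and sequencing lanes are given beside the H3K9ac difference. The larger of each ChIP and input library was scaled down to the smaller, and the single input of each genotype held 28.8 M tags for Control and 31.3 M for cKO, so that usable H3K9ac tags were higher in cKO by 0.12 on the log2 scale. Genotype and input cannot be told apart. The same scaling gave 0.12 for H3K27ac and for H3K4me1, and 0.013 for H3K4me3. The part of the tag numbers in the H3K9ac difference was not tested. By sequencing lane, H3K9ac was present at 87.4% of members in 1 Control and 93.4% in 1 cKO library of lane 5, and at a mean of 89.9% in 3 Control and 91.8% in 2 cKO libraries of lane 6. The difference thus had the same direction in both lanes and was smaller in lane 6. Genome-wide, the cKO libraries 1, 2 and 4 held 138833, 128627 and 107536 H3K9ac peaks, and the Control libraries 108217 to 117343.

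**Figure D1:**
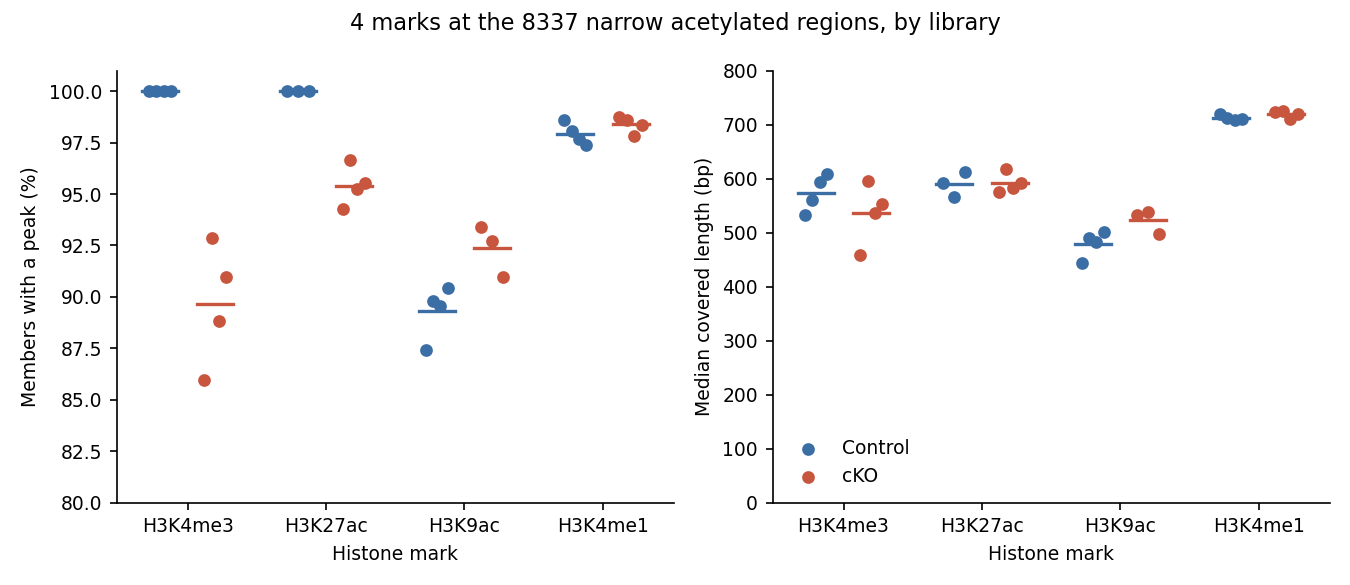
Share of the 8337 members with a peak (left, in percent, on an axis that does not start at 0) and median covered length over members (right, in bp) for 4 histone marks; each point is 1 library and the horizontal line is the mean of a genotype. H3K4me3 in cKO lies at 86.0 to 92.9% against 100% in Control by the rule, H3K9ac is higher in all 3 cKO libraries than in all 4 Control libraries, and H3K4me1 lies at 97.4 to 98.7% in both.

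The genotype difference at members was set beside that at wider acetylated regions. The difference was measured per region as mean log2(covered length + 100 bp) in cKO minus that in Control. For H3K4me3 its median was -0.02 at members, -0.08 at mid-width and -0.33 at wide acetylated regions. At members the quartiles were -0.30 and 0.08. The rule requires a peak in every Control library, and covered length cannot exceed the span of the merged Control peaks. Both favour a wider spread downward than upward, so the quartiles do not show a property of cKO. For H3K27ac the medians were 0.00, -0.05 and -0.09 in the same order, and for H3K9ac 0.09, -0.03 and -0.18. For H3K4me1 they were 0.00, 0.01 and 0.10. The H3K9ac median was thus above 0 at members and below 0 in both wider classes. At regions with a Control H3K27ac peak in only some libraries it was 0.04, and at regions with none 0.00. A positive median was therefore not particular to members. The 3 width classes were defined on Control H3K4me3, and the difference between them was not tested.

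Counts of members whose genotypes did not overlap gave the same order. H3K4me3 was shorter in every cKO than in every Control library at 825 members (9.90%) and longer at 139 (1.67%), beside 23.3% and 1.01% of the 30258 regions with a peak in all 4 Control libraries. H3K27ac was shorter in every cKO library at 424 members and longer at 303, or 5.09% and 3.63%, beside 7.48% and 2.32% of those regions. H3K9ac was shorter in every cKO library at 230 members (2.76%) and longer at 740 (8.88%), beside 10.6% and 4.81%. H3K4me1 was shorter at 20 members (0.24%) and longer at 79 (0.95%), beside 1.38% and 4.32%. The share of shorter regions was below the background for all 4 marks, but that background includes the wider classes. For H3K4me3 the share was 26.1% at mid-width acetylated regions. It was 8.05% at regions of any width with no Control H3K27ac peak. At regions with such a peak in only some Control libraries it was 7.49%, so both of these shares were below that at members. At wide acetylated regions H3K4me3 was shorter in every cKO library in 82.7%.

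**Figure D2:**
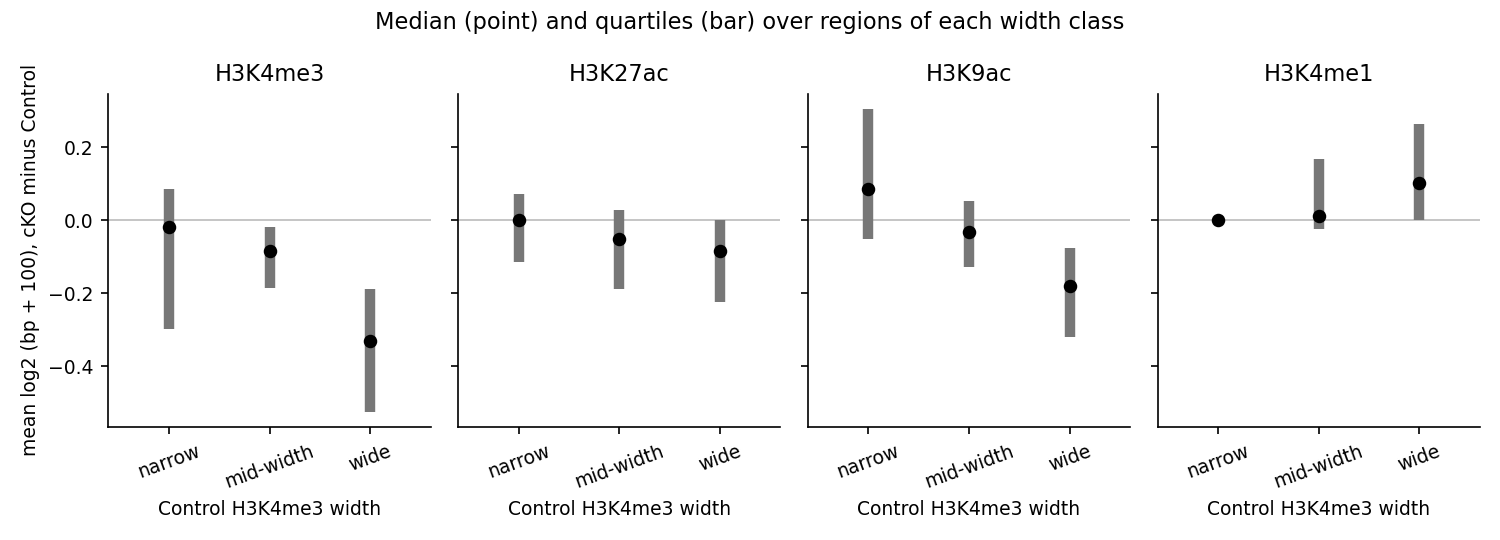
Genotype difference, as mean log2(covered length in bp + 100) in cKO minus Control, for narrow (members), mid-width and wide acetylated regions; points are medians over regions and bars span the quartiles. H3K4me3 and H3K9ac medians fall from -0.02 and 0.09 at members to -0.33 and -0.18 at wide regions.

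The presence of H3K4me3 in cKO neurons differed with what lay beside a member. All 4 cKO libraries had an H3K4me3 peak at 6766 members (81.2%), and 611, 371 and 261 members had a peak in 3, 2 and 1 of them. No cKO library had a peak at 328 members (3.93%), beside 2.43% of all regions with a peak in all 4 Control libraries. Among those regions the share was 0.413% for mid-width acetylated ones and 5.19% for those with no Control H3K27ac peak. It was 4.04% for those with such a peak in only some Control libraries. By the rule no Control library lacks a peak of H3K4me3, or of H3K27ac, which was without a peak in any cKO library at 72 members, so these numbers cannot be read against the Control libraries. H3K9ac, which the rule did not use, had no peak in any cKO library at 211 members and in any Control library at 232, and H3K4me1 at 50 and 66.

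Held-out libraries give a fairer reading. The rule was therefore applied to 3 Control libraries at a time, and the fourth was compared with the cKO libraries. The 4 selections kept 9013 to 9329 regions. The held-out Control libraries 1 to 4 had a peak at 91.1, 91.6, 94.0 and 94.9% of the regions, and the cKO libraries at 82.0 to 91.1%. In each selection the held-out Control library lay above all 4 cKO libraries, by less than the range among the cKO libraries. In reverse, the rule applied to cKO libraries gave 8451 regions, of which 65.8% overlapped members, and Control libraries had an H3K4me3 peak at 90.8 to 93.6% of them.

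Regions within 2 kb of a wide acetylated region stood far apart in the held-out comparison. There the held-out Control libraries had a peak at 89.6 to 94.9% and the cKO libraries at 40.9 to 57.6% of 528 to 545 regions. Next to a mid-width acetylated region the shares were 92.9 to 95.8% in held-out Control and 72.2 to 83.9% in cKO. Beside another kind of H3K4me3 region they were 87.6 to 92.9% and 74.0 to 87.7%, and within each selection the held-out Control library lay above all cKO libraries. With no other region within 2 kb they were 92.4 to 95.6% and 90.5 to 97.5%, with the cKO libraries on both sides of the Control range. Within each selection the genotypes were thus separated at regions beside a neighbour of any kind and overlapped at isolated ones. The neighbour classes use the same Control H3K4me3 peaks as the rule, and the difference between classes was not tested.

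The shares also differed by the side of the start site. Members that lay up to 5 kb downstream of a start site, in the transcribed direction, had a peak in 91.4 to 95.6% of cases in held-out Control and 66.0 to 78.5% in cKO libraries. Those up to 5 kb upstream had 93.9 to 95.9% and 86.6 to 93.3%. With a start site inside, the shares were 97.1 to 99.3% and 93.7 to 98.4%, and those farther than 5 kb from any start site had 90.1 to 94.5% and 82.3 to 92.0%. Of these classes, the gap between the held-out Control and cKO ranges was widest downstream of start sites.

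**Figure D3:**
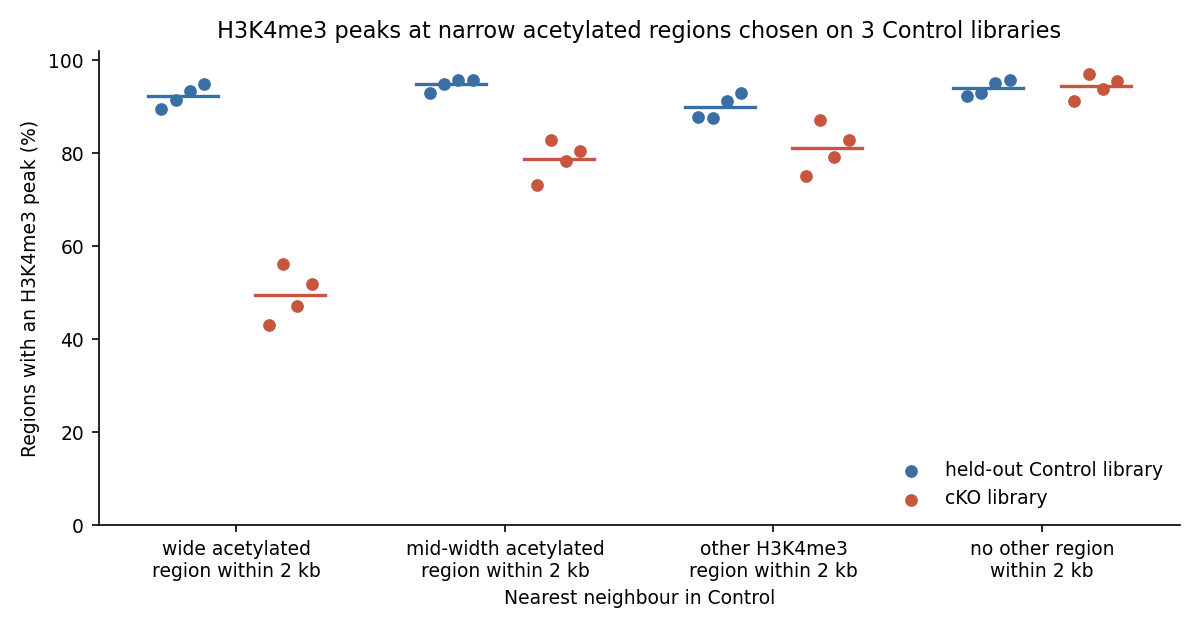
Percent of narrow acetylated regions with an H3K4me3 peak when the rule used 3 Control libraries, by the Control H3K4me3 regions within 2 kb. A wide acetylated region was counted first, then a mid-width one, then any other, whichever was nearest. Blue points are the held-out Control libraries, red points the cKO libraries (each the mean over the 4 selections), and lines are means. Beside wide regions all cKO points lie under all held-out Control points, and with no neighbour the points of both genotypes overlap.

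Of the 328 members with no H3K4me3 peak in any cKO library, 126 lay within 2 kb of a wide acetylated region, which is 27.9% of the 452 members there. A mid-width neighbour was present for 64, or 8.59% of that group, another H3K4me3 region for 112, or 5.45%, and none for 26, or 0.511%. In total 302 of the 328 (92.1%) had another Control H3K4me3 region within 2 kb. A gene body overlapped 318 of them. Such members were more frequent among the short ones, at 7.32% of those under 400 bp and 1.85% of those of 800 bp or more. Without Control library 1 in the rule, 502 members had no cKO peak.

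The other marks were mostly still present at these 328 members. All cKO libraries had an H3K27ac peak at 261 of them (79.6%), beside 89.6% of all members, and the median H3K27ac length was 572 bp in Control and 502.75 bp in cKO. H3K27ac was shorter in every cKO than in every Control library at 51 (15.5%), beside 5.09% of all members. Over all regions with an H3K4me3 peak in all 4 Control libraries the share was 7.48%. H3K9ac was present in all 3 cKO libraries at 208 (63.4%), beside 86.0% of all members, with median lengths of 479 bp in Control and 345 bp in cKO, a median difference of -0.23 on the log2 scale. H3K9ac was shorter in every cKO than in every Control library at 58 (17.7%), beside 2.76% of all members. Over all regions with an H3K4me3 peak in all 4 Control libraries the share was 10.6%. H3K4me1 was present in all 4 cKO libraries at 317 (96.6%), with a median difference of 0.00. These members thus kept H3K4me1, while their median H3K9ac difference was below that over all members.

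The longest Control H3K4me3 lengths without a cKO peak were in the bodies of neuronal genes beside wide regions. In Grin1, the obligatory subunit of NMDA receptors, a member at chr2:25312088-25313688 lay 5499 bp inside the gene from its start site. H3K4me3 covered 496, 1305, 1068 and 1117 bp there in Control, a mean of 997 ± 349 bp (SD, n = 4), and 0 bp in all 4 cKO libraries. H3K27ac covered 1503, 724 and 1130 bp in Control and 254, 609, 818 and 669 bp in cKO, which overlap at the third cKO library. H3K9ac covered 1483, 1601, 1429 and 1601 bp in Control and 1381, 1073 and 1158 bp in cKO, so that every cKO library was lower. H3K4me1 covered the whole 1601 bp in all 8 libraries.

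In Bcl11a, a zinc-finger transcription factor, the member at chr11:24092672-24093905 had 924, 1234, 649 and 1147 bp of H3K4me3 in Control and 0 bp in every cKO library. H3K27ac covered its full 1234 bp in all 4 cKO libraries and 733, 1234 and 1234 bp in Control. The full length of a member is the most that covered length can reach, so a higher H3K27ac level would not show there. In Gprin1, a G protein-regulated inducer of neurite outgrowth, the member at chr13:54744274-54745805 had 1191, 606, 1334 and 821 bp of H3K4me3 in Control and 0 bp in every cKO library. H3K9ac there covered 898, 1107, 968 and 1204 bp in Control and 751, 733 and 655 bp in cKO, with no overlap.

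The largest differences in the other direction, with longer H3K4me3 in cKO, were at members more than 5 kb from a listed start site. In Ints7, a subunit of the Integrator complex that processes non-coding RNA, the member at chr1:191592071-191593049 had 157, 350, 542 and 359 bp in Control and 633, 979, 796 and 669 bp in cKO. H3K9ac at that member covered 157, 166, 0 and 0 bp in Control and 609, 753 and 183 bp in cKO, so that both marks were longer in every cKO library. An intergenic member at chr3:50694522-50695435 had 474, 181, 834 and 484 bp of H3K4me3 in Control and 768, 914, 914 and 914 bp in cKO. Another at chr6:89238687-89239816 had 214, 591, 288 and 1043 bp in Control and 733, 986, 1034 and 867 bp in cKO. In both of these the highest Control library was not below all cKO libraries. The member with the median Control length, at chr4:110020091-110020696, had 606, 572, 551 and 537 bp in Control and 578, 558, 582 and 591 bp in cKO, with the genotypes interleaved.

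The largest falls in mean H3K27ac length, in bp, were at 2 members without a cKO H3K4me3 peak. In 1110002E22Rik, the member at chr3:138069733-138070911 had 1029, 867 and 1117 bp of H3K27ac in Control and 0, 112, 301 and 253 bp in cKO. H3K4me3 at that member covered 322, 928, 1165 and 1074 bp in Control and 0 bp in cKO libraries. In Twf2, a twinfilin that binds actin, the member at chr9:106205645-106206990 had 1107, 1250 and 1346 bp of H3K27ac in Control and 119, 809, 464 and 320 bp in cKO. All 4 cKO libraries had 0 bp of H3K4me3 there, against 708, 839, 913 and 1250 bp in Control. H3K9ac at the Twf2 member was also lower in each cKO library, at 287, 657 and 620 bp against 1227, 1014, 985 and 924 bp.

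Longer H3K27ac in cKO was found in Zbtb20, a zinc-finger factor of hippocampal CA1 identity, at chr16:43235403-43236321. H3K27ac covered 217, 752 and 365 bp there in Control and 919, 909, 919 and 919 bp in cKO. H3K4me3 at that member covered 626, 803, 759 and 868 bp in Control and 720, 906, 919 and 814 bp in cKO, which overlap. An intergenic member at chr12:65258653-65259887 had 417, 210 and 1022 bp of H3K27ac in Control and 950, 999, 836 and 1168 bp in cKO, with 1 Control library inside the cKO range.

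**Figure D4:**
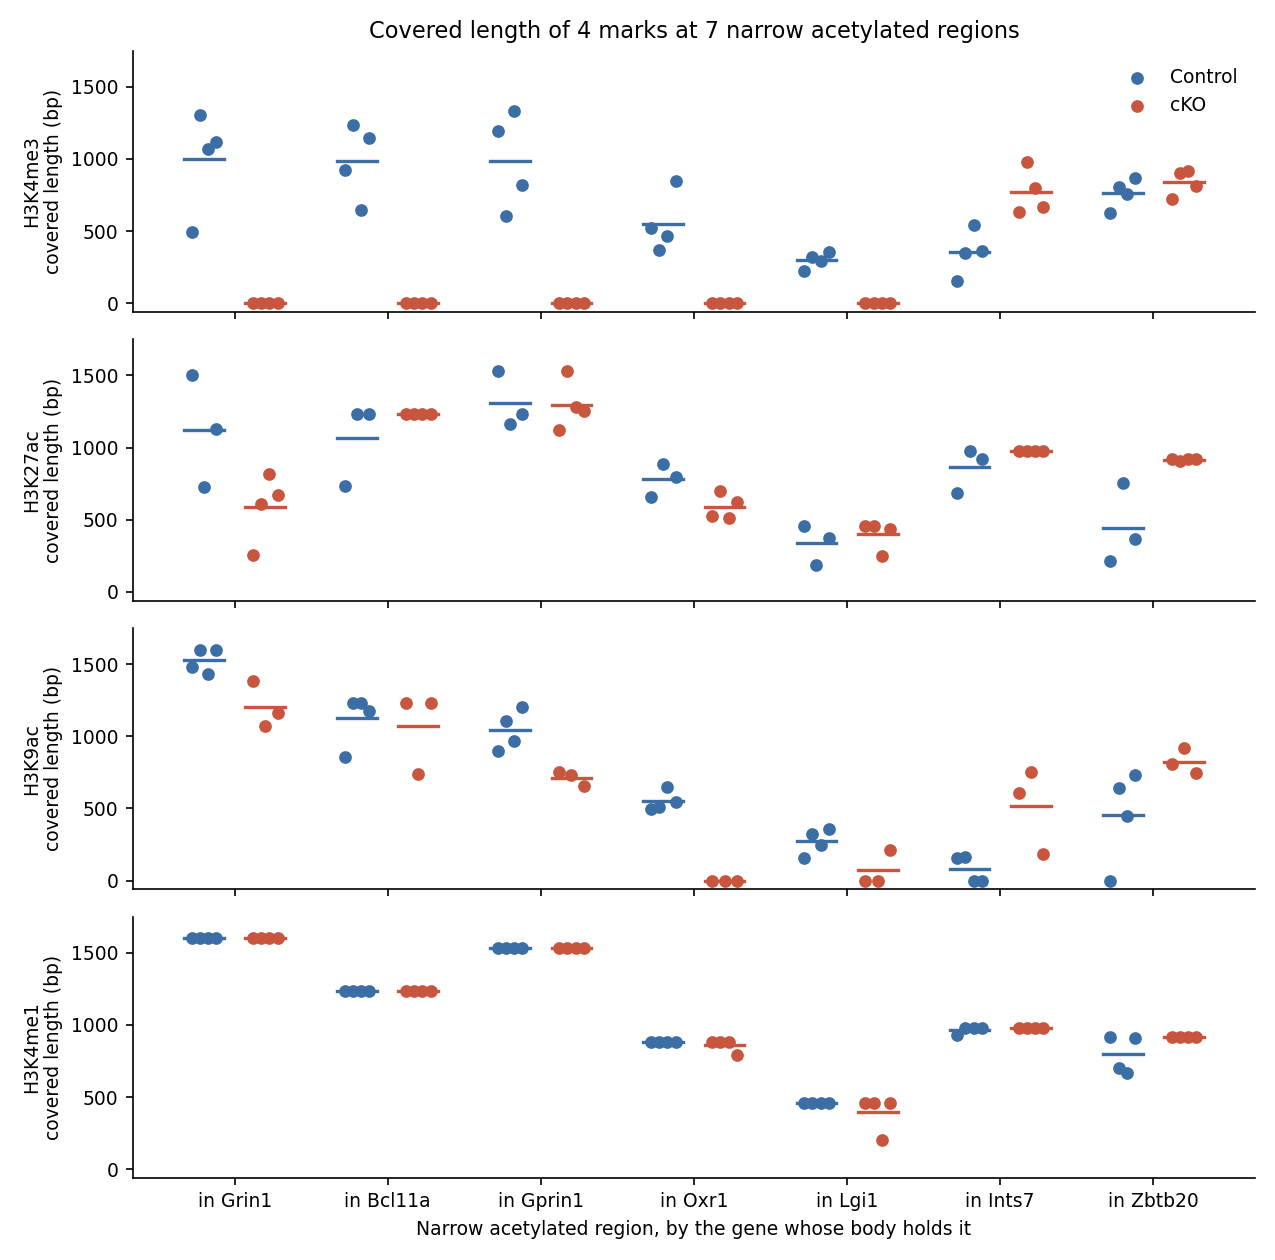
Covered length (bp) of H3K4me3, H3K27ac, H3K9ac and H3K4me1 at members in Grin1, Bcl11a, Gprin1, Oxr1, Lgi1, Ints7 and Zbtb20; each point is 1 library and lines are means. H3K4me3 is at 0 bp in all cKO libraries at the first 5, where H3K4me1 covers 202 bp or more in every library.

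The neuron RNA was then read for the genes whose bodies held a member with no H3K4me3 peak in any cKO library. Of the 328 members, 307 lay in the bodies of 263 protein-coding genes, and 256 of these genes were tested in edgeR's quasi-likelihood test with Benjamini-Hochberg adjustment over all 19622 genes. At an adjusted p under 0.05, 16 were lower in cKO (6.25%), beside 2.0% of all genes tested, and 0 were higher, beside 0.744%. At an unadjusted p under 0.05, 61 were lower and 10 higher, beside 1776 and 1603 of all 19622 genes, and DESeq2 called 29 lower and 0 higher, beside 598 and 234. Another set was the host genes of members with a peak in every cKO library, leaving out hosts of any of the 328. Of these, 56 of 2119 (2.64%) were lower and 26 (1.23%) higher. The 256 host genes were more highly expressed, with a median log2 CPM of 7.05, against 4.52 for the 2119 and 3.41 over all genes tested. The sets were thus not matched in level, and the part of that level in the count was not tested. In these bulk samples, fewer cells of a type and less RNA per cell cannot be told apart.

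The 16 genes were Arpp21, 1110002E22Rik, Capn3, Col22a1, Dusp18, Galnt17, Gpr37, Lgi1, Lrrtm1, Mas1, Oxr1, Scn3b, Stra6, Tagln3, Twf2 and Zmynd8, and they were singled out after their values were seen. Capn3, a calpain protease, was at 18.3, 14.97 and 16.02 CPM in Control and 3.83, 3.37 and 3.69 CPM in cKO, a log2 difference of -2.18 (SE 0.11, edgeR adjusted p = 2.96e-05). Its member at chr2:120499829-120500452 had 271, 165, 617 and 507 bp of H3K4me3 in Control, and 624 bp of H3K27ac in each Control library against 559, 388, 588 and 620 bp in cKO. Lgi1, a secreted synaptic protein whose mutations cause epilepsy, was at 155, 183 and 170 CPM in Control and 64.7, 64.5 and 61.6 CPM in cKO (log2 -1.41, SE 0.09, edgeR adjusted p = 4.83e-05). Its member at chr19:38271118-38271575 had 225, 317, 295 and 358 bp of H3K4me3 in Control and 0 bp in cKO.

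Ion channel and synaptic genes were among the rest. Scn3b, a beta subunit of voltage-gated sodium channels, was at 510 ± 11.1 CPM in Control and 320 ± 15.1 CPM in cKO (SD, n = 3 each), and its log2 difference was -0.67 with an edgeR adjusted p of 0.00345. Mas1, a G protein-coupled receptor of the renin-angiotensin system, was at 81.6 ± 1.31 CPM in Control and 47.4 ± 3.83 CPM in cKO, and Lrrtm1, a postsynaptic adhesion protein, was at 130 ± 10.6 CPM and 93.0 ± 4.72 CPM. Oxr1, which protects against oxidative damage, was at 217 ± 41.2 CPM in Control and 137 ± 13.2 CPM in cKO (log2 -0.66, SE 0.14, edgeR adjusted p = 0.0401). In each of these genes all 3 cKO libraries lay below all 3 Control libraries. Grin1 itself, at 638, 488 and 475 CPM in Control and 443, 394 and 458 CPM in cKO, did not pass the test (edgeR adjusted p = 0.27), and neither did Bcl11a (edgeR adjusted p = 0.43) nor Gprin1 (edgeR adjusted p = 0.53).

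H3K9ac was tested over the whole genome, in 88791 regions of merged H3K9ac peaks. limma on log2(covered length + 100 bp), with Benjamini-Hochberg adjustment over all of them, called 830 regions lower in cKO (0.935%) and 1589 higher (1.79%). Of the 8050 H3K9ac regions that overlapped a member, 18 were lower (0.224%) and 46 higher (0.571%), both smaller shares than over the genome, and 874 had an unadjusted p under 0.05. The median log2 difference was 0.16 at members and 0.06 over all regions. When each library was centred on its median these became -0.01 and -0.10, and the calls at members became 29 lower and 40 higher. Higher calls outnumbered lower ones under both scalings, by less after centring, and the calls were 5 lower and 5 higher when a peak was required in every library. At mid-width regions 68 of 13601 were lower and 10 higher.

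Most of these calls were peaks present in 1 genotype only. This held for 40 of the 46 higher and 11 of the 18 lower regions. Such regions passed the filter, a peak in at least 3 libraries, only through the genotype that had the peaks. Their p-values are therefore not read as support for a difference. Members with no H3K4me3 peak in any cKO library held 277 tested H3K9ac regions, of which 7 were lower, while members with a peak in every cKO library held 6652 regions, of which 43 were higher and 5 lower. Of the 46 higher regions, 36 lay at members with no other H3K4me3 region within 2 kb, which held 4980 of the 8050 tested regions. The lower count was 37 without cKO library 1, 28 without cKO library 2 and 29 without cKO library 4, and the higher count was 70 without Control library 2 and 84 without Control library 4.

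The lower H3K9ac region with the smallest adjusted p lay in Oxr1 at chr15:41519117-41519446, with 268, 269, 283 and 294 bp in Control and 0 bp in all 3 cKO libraries (log2 -1.92, SE 0.12, limma adjusted p = 0.0016). A second one at chr15:41518321-41518906 overlapped the same member, with 230, 483, 493 and 445 bp in Control and 0 bp in cKO (log2 -2.32, SE 0.24, limma adjusted p = 0.00323). The Oxr1 member at chr15:41518543-41519425 had 519, 371, 467 and 847 bp of H3K4me3 in Control and 0 bp in every cKO library, and it had no other H3K4me3 region within 2 kb. H3K27ac at that member covered 660, 883 and 796 bp in Control and 527, 699, 509 and 626 bp in cKO, and H3K4me1 covered 792 bp or more in each library. Oxr1 thus had shorter H3K4me3 and H3K9ac at this member and less RNA in cKO, with H3K27ac and H3K4me1 still present. An intergenic region at chr10:56504496-56504885 had 293, 259, 327 and 188 bp of H3K9ac in Control and 0 bp in cKO (log2 -1.86, limma adjusted p = 0.00226). H3K4me3 at its member was present in all 4 cKO libraries. The named lower regions were all at 0 bp in cKO and passed the filter only through the Control libraries. Their log2 differences and SE depend on the 100 bp offset and are no bound on the change. Their adjusted p-values are not read as support.

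The 3 named higher H3K9ac regions had no peak in any Control library. A region at chr15:95699804-95700231, 44357 bp from the start site of Dbx2, had 330, 357 and 398 bp in cKO (log2 2.20, SE 0.13, limma adjusted p = 0.0016). Regions in Mtus2 at chr5:148130866-148131367 and between genes at chr1:76637245-76637708 had 288, 272 and 319 bp and 464, 307 and 411 bp in cKO. These log2 differences against a group at 0 bp, and their SE, depend on the 100 bp offset and are no bound on the change. The regions passed the filter only through the cKO libraries, so the adjusted p is not read as support. The 3 members concerned had H3K4me3 peaks in all 4 cKO libraries.

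H3K4me1 differed at few members. Over 137481 merged H3K4me1 regions, limma called 988 lower in cKO (0.719%) and 1060 higher (0.771%). Of 7418 regions that overlapped members, 5 were lower and 7 higher, with 549 at an unadjusted p under 0.05. With each library centred on its median the calls at members were 28 lower and 2 higher, so that the direction with more calls changed with the scaling. At mid-width regions 309 of 10758 were lower and 10 higher. The lower count at members was 3 without Control library 1 or 2 and 9 without cKO library 1. The higher count was 4 without Control library 2 or 3, 2 without Control library 4, 3 without cKO library 2 or 4, and 12 without cKO library 3.

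The named lower H3K4me1 regions were stretches of several kilobases in which a member lay. Around Tuba1b, an alpha-tubulin, the region at chr15:98928419-98933716 had 5180, 4964, 5123 and 5034 bp in Control and 2186, 2032, 2726 and 2233 bp in cKO (log2 -1.12, SE 0.13, limma adjusted p = 0.00613). A region at Gzf1, a zinc-finger protein, at chr2:148677007-148688306 had 10114, 10183, 8136 and 9960 bp in Control and 5002, 5433, 4840 and 5102 bp in cKO (log2 -0.90, limma adjusted p = 0.018). At Sirt4, a mitochondrial sirtuin, the region at chr5:115479660-115485352 had 5582, 5011, 4995 and 5135 bp in Control and 2229, 2761, 1891 and 2790 bp in cKO (log2 -1.08, limma adjusted p = 0.0194). In each of them all cKO libraries were shorter than all Control libraries.

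The higher ones included a start site. At the start of Atp9a, a phospholipid flippase, the H3K4me1 region chr2:168742269-168742850 had 0 bp in every Control library and 214, 452, 252 and 365 bp in cKO (log2 2.04, limma adjusted p = 0.00227). In Senp7, a SUMO protease, the region chr16:56064205-56064889 had 0 bp in Control and 297, 685, 314 and 548 bp in cKO. The Atp9a and Senp7 regions passed the filter only through the cKO libraries, so an adjusted p there is not read as support. Their log2 differences depend on the 100 bp offset. A region at chr11:101657352-101659493 had 278, 251, 334 and 324 bp in Control and 779, 953, 1646 and 1748 bp in cKO (log2 1.73, limma adjusted p = 0.0242). H3K4me3 was present at all 3 members in every cKO library.

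Few genes started inside a member, and most of them did not pass the test in RNA. The 622 start sites belonged to 569 genes, of which 403 had an ID in the RNA tables and 340 were tested. edgeR called 10 lower (2.94%) and 5 higher (1.47%), beside 2.0% and 0.744% of all genes, and 80 had an unadjusted p under 0.05. The median log2 difference was 0.00 at these genes and 0.02 over all genes. Of 6699 genes that started in mid-width regions, 91 (1.36%) were lower and 33 (0.493%) higher. The higher count at members was 1 without cKO library 1 or Control library 3 and 2 without cKO library 2 or Control library 2.

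Lrrc10b, which encodes a leucine-rich repeat protein, had the largest fall. It was at 23.6, 20.4 and 16.9 CPM in Control and 3.68, 3.16 and 3.53 CPM in cKO (log2 -2.55, SE 0.14, edgeR adjusted p = 3.33e-05). Its start site lay in a member at chr19:10457431-10458349 with a wide acetylated region within 2 kb. H3K4me3 covered 845, 812, 788 and 783 bp of that member in Control and 454, 802, 689 and 854 bp in cKO, which overlap. H3K9ac covered 197, 682, 422 and 679 bp in Control and 0, 242 and 0 bp in cKO. The RNA of Lrrc10b was thus lower in cKO, while the member that holds its start site had an H3K4me3 peak in every cKO library. Whether those peaks covered the start site itself was not examined.

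Zmynd8, a chromatin reader of acetylated and methylated histone tails, was at 338, 277 and 283 CPM in Control and 134, 126 and 138 CPM in cKO (log2 -1.18, SE 0.10, edgeR adjusted p = 3.67e-04). Of its 5 listed start sites, 1 lay in a member, at chr2:165857448-165858704. All libraries had H3K27ac, H3K9ac and H3K4me1 over the whole 1257 bp of that member. Fam107a, an actin-associated protein induced by stress, was at 29.9, 29.7 and 29.5 CPM in Control and 15.4, 17.8 and 16.7 CPM in cKO (log2 -0.84, SE 0.09, edgeR adjusted p = 0.00103). H3K27ac at its member, chr14:8316983-8317857, covered 689, 328 and 234 bp in Control and 0, 218, 0 and 0 bp in cKO, and H3K4me3 covered 782 to 867 bp in Control and 730 to 875 bp in cKO. Fam107a has 3 listed start sites, and whole-gene counts do not say which was used.

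The other named falls were smaller in level. Marveld1, a MARVEL-domain membrane protein, was at 16.8 ± 0.06 CPM in Control and 9.02 ± 1.14 CPM in cKO, and Mst1r, the receptor of macrophage-stimulating protein, at 8.24 ± 0.36 CPM and 4.50 ± 0.03 CPM. The other lower genes were Gucy2g, a receptor guanylate cyclase, Spata13, Serpinb8, a protease inhibitor, and Fyb2, with log2 differences of -0.77, -0.76, -0.70 and -0.59. H3K4me3 at the Gucy2g member covered 495, 226, 449 and 594 bp in Control and 147, 30, 364 and 0 bp in cKO. In each of these genes every cKO library lay below every Control library.

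The genes that were higher had low levels. Myo5c, a class V myosin motor, was at 8.22, 10.1 and 7.91 CPM in Control and 14.01, 13.8 and 13.8 CPM in cKO (log2 0.67, SE 0.11, edgeR adjusted p = 0.0125). Its member at chr9:75231780-75232815 had 916 to 964 bp of H3K4me3 in Control and 803 to 904 bp in cKO, so H3K4me3 was shorter in every cKO library while the RNA was higher. Piezo1, a mechanically gated cation channel, was at 2.84 ± 0.56 CPM in Control and 4.78 ± 0.41 CPM in cKO. H3K4me3 at its member covered 1202, 1104, 650 and 831 bp in Control and 1322, 1320, 999 and 1273 bp in cKO. Dglucy, a D-glutamate cyclase, was at 4.06 ± 0.16 CPM and 5.79 ± 0.37 CPM, and the predicted gene Gm3693 at 1.38 ± 0.09 CPM and 2.83 ± 0.20 CPM. Outside the rule for named genes, 1700063O14Rik was lower (log2 -1.31) and 4732419C18Rik higher (log2 0.79). Strand use in counting is not given in the sources used here, so overlapping genes cannot be told apart.

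**Figure D5:**
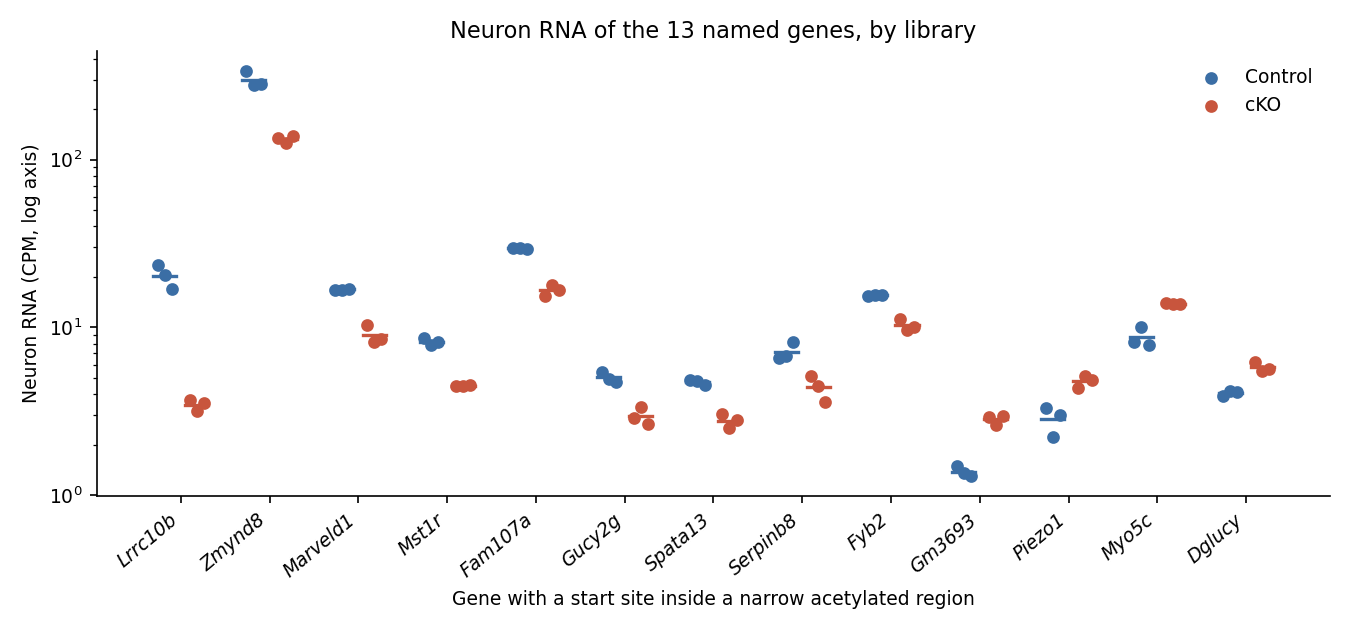
Neuron RNA (CPM on a log axis) of the 13 named genes with a start site inside a member; each point is 1 library and lines are means of 3. The 9 genes on the left are lower and the 4 on the right higher in all cKO libraries than in all Control libraries.

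Genes of a synaptic plasticity list held members inside their bodies and none at their listed start sites. Of the 30 genes of that list, 17 had a listed start site, 15 of them in a wide acetylated region and 0 in a member. Over all genes with a listed start site, 569 of 25748 started in a member, so 0 of 17 does not set the list apart. Members lay in the bodies of 14 of the 29 genes with a RefSeq body, 39 in all, with 7 in Ppp3ca, the catalytic subunit of calcineurin, 5 in Camk2b, 5 in the NMDA receptor gene Grin2b and 4 each in Gria1, Grin1 and Kcnj6. The share over all gene bodies is not given here, so this count is a description only. No cKO library had an H3K4me3 peak at 2 of the members in Grin1, 2 in Grin2b, 2 in Ppp3ca and 1 in Camk2b. In RNA, edgeR called 2 of the 30 genes lower and 0 higher, beside 2.0% and 0.744% of all genes tested. At an unadjusted p under 0.05 there were 7, beside 1776 lower and 1603 higher of all 19622 genes, and DESeq2 called 4 lower and 0 higher, beside 598 and 234. The 2 were Nptx2, a neuronal pentraxin, at 33.3 ± 4.01 CPM in Control and 15.5 ± 1.97 CPM in cKO (edgeR adjusted p = 0.00134), and Nrgn, a calmodulin-binding postsynaptic protein, at 242 ± 16.9 CPM and 179 ± 12.6 CPM (edgeR adjusted p = 0.0421). Neither held a member. No listed start site of the COMPASS list or of the histone acetylation list lay in a member. A start site was listed for 14 of the 20 COMPASS genes and 9 of the 12 acetylation genes. Their bodies held 1 member in Kmt2a, 1 in Kat6a and 3 in Kat6b, each with an H3K4me3 peak in at least 1 cKO library, and edgeR called none of their 19 and 12 tested genes, with 1 gene of each list at an unadjusted p under 0.05 and none called by DESeq2. Among marker genes Rbfox3, a marker of neurons with a body of 422 kb, held 11 members. Slc17a7 held 2, and Camk2a and Gad1 held 1 each. Markers of other cell types held members too, with 1 each in Gfap, Slc1a3, Cspg4, Mbp and Flt1 and 2 each in Pdgfrb and Pecam1. No listed start site of a marker gene lay in a member. Only 4 of 8 oligodendrocyte lineage and 3 of 6 microglia markers had a listed start site.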

How the data were processed

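The authors' deposited ChIP files were peak lists, 1 per library, with peak length, fold enrichment over input (a ratio) and a q-value on the −log10 scale. Per the file headers, MACS2 called them for each library separately, with broad calling for H3K4me1 only. Tags had 50 bp. The build was mm10 (GRCm38) and SAMtools was used, per the submitters' processing notes. The deposited RNA files held read counts per Ensembl ID, with 99.3% of IDs matched to a symbol and no row without a gene; aligner and counting tool are not given in the sources used here. Members and gene lists were chosen with earlier results of these data known.

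Covered length per library was computed with Python 3.11.15, NumPy 2.4.6 and pandas 2.3.3. Tests over all regions of a mark (peak in at least 3 libraries) used limma 3.58.1 on log2(bp + 100), and over all genes edgeR 4.0.16 (TMM, filterByExpr), in R 4.3.3, with Benjamini-Hochberg adjustment and a threshold of 0.05. DESeq2 1.42.0 was an alternative. On simulated data, limma recovered 70% of 200 lowered regions among 40302 for H3K9ac and 56% of 200 among 86396 for H3K4me1 (median estimates -1.52 and -1.54, log2), and edgeR 85.0% of 193 lowered genes among 19450 (-1.00). The simulated regions were modelled on those with a peak in every library and all lowered by the same amount. The limma rates therefore do not cover smaller shifts or peaks present in a single genotype. Named regions were, for H3K4me3 and H3K27ac, the members with the largest differences in mean length (3 and 2 per direction), and for H3K9ac and H3K4me1 the 3 calls per direction with the smallest adjusted p among those without overlap. Named genes were up to 10 per direction by log2 difference, without overlap and with a mean log2 CPM of 1 or more. Gene bodies and start sites were those of RefSeq GRCm38.p6. Peak lists give no counts per region, so no counting interval is given. Whole-CA RNA was not used here. Correlations of same-numbered libraries' deviations ran from -0.06 to 0.29, so the numbers were not taken to pair them.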

Additional observations from a re-analysis of the deposited data

Results flagged for a closer look

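In groups of 4 libraries, 81 sets of covered lengths at named regions were searched for a library far from the other 3, by Dixon's 95% critical value. Chance gives about 1 such set in 20, and 11 were found. In Control, H3K9ac at the Bcl11a member (chr11:24092672) was lowest at 855 bp in 1 library, H3K4me1 at the Ints7 member (chr1:191592071) at 928 bp, and H3K4me1 of the Gzf1 region (chr2:148677007) at 8136 bp. H3K4me3 at the Lasp1 member (chr11:97812183) was highest at 1190 bp in 1 Control library.

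In cKO, the lowest library stood apart at 7 sets. At the member at chr3:50694522, H3K4me3 was at 768 bp in cKO library 1 and H3K27ac at 769 bp in cKO library 4. H3K27ac at the Zbtb20 member (chr16:43235403) was at 909 bp. H3K4me1 was at 528 bp at chr4:110020091, at 573 bp at chr3:138069733, at 1097 bp at the Twf2 member (chr9:106205645) and at 1203 bp at chr12:65258653. In most of these sets the other libraries covered the whole region.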

How the results depend on the processing

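Peak lists have no reads outside peaks, so a difference under the authors' threshold was not detectable. H3K9ac lower calls (18) became 11 with peaks within 1 kb merged, 5 with a peak in every library, 9 with an offset of 1000 bp, 29 after centring, 42 in lane 6 only, and 15 to 37 leaving out 1 library. H3K9ac higher calls (46) became 147 at −log10 q of at least 5, 5 with a peak in every library, 19 with an offset of 1000 bp, 30 with 50% of the member covered and 40 to 84 leaving out 1 library. H3K4me1 lower calls (5) became 0 at −log10 q of at least 5 (716 at unadjusted p under 0.05 in limma), 11 with a peak in every library, 18 with an offset of 1000 bp, 28 after centring, 1 in lane 3 only and 3 to 9 leaving out 1 library. H3K4me1 higher calls (7) became 159, 12, 14 and 2 in the first 4 of these, 4 with lane as a term, and 2 to 12 leaving out 1 library. With the replicate number as a block, limma called 0 regions at members for H3K9ac (531 at unadjusted p under 0.05) and 0 for H3K4me1 (371), and edgeR called 8 genes lower and 4 higher. RNA higher calls (5) became 15 at an adjusted p under 0.1, 10 with no filter, 11 in DESeq2 and 1 to 5 leaving out 1 library, while the lower calls (10) were 7 to 9 then. The number of members was 4122 at −log10 q of at least 5 and 9013 to 9329 leaving out 1 Control library. Members without a cKO H3K4me3 peak (328) were 469 to 502 leaving out 1 Control library and 354 to 451 leaving out 1 cKO library. At −log10 q of at least 5 they were 157. The share of those with a neighbour (92.1%) was 75.2% at that threshold. The H3K27ac median was 0.0127 in a 3 kb window, and the H3K4me3 median was -0.05 to 0.03 leaving out 1 library, so its sign is not settled. The alternatives by lane and for members without a cKO peak were chosen after seeing the data. The cause of these shifts was not tested.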
